A study of Rattus norvegicus with 6 samples.

Results

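The 2 injured stages of a rat sciatic nerve crush series were compared directly with each other. The comparison took the D7 libraries (7 days after the crush) against the D4 libraries (4 days after it), 4 of the 6 libraries of the series with 2 per group, and asked which transcripts recovered, which faded and which appeared late between these days. The libraries were made from total RNA of the sciatic nerve of 1-month-old Sprague-Dawley rats, a common outbred strain. In D4 and D7 the left sciatic nerve had been clamped at its middle with hemostatic forceps and released. The Control group is called normal control in the labels, whereas the methods describe the same operation without the clamp, and it served here as the reference level. Each library came from 1 rat, all 6 from rats with no genetic modification named, and the letters a and b name libraries and do not pair rats. The methods do not say which length of nerve around the crush was taken. No rat was sampled on both days, so D7 against D4 is a difference between rats.

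After a crush, the axons beyond the lesion degenerate, and the Schwann cells that had wrapped them switch off the myelin genes, divide, break down myelin debris and secrete trophic factors that support regrowing axons. Macrophages enter the nerve and clear debris. When axons grow back into the nerve, Schwann cells leave the cell cycle and make myelin again, which calls for structural myelin proteins and for large amounts of cholesterol and other lipids. In bulk tissue, fewer cells of a type and less RNA per cell cannot be told apart, and this holds for every result below.

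Depth was 18727255 to 25350886 counts per library over genes and 2694777 to 3043817 over long noncoding RNA (lncRNA) transcripts. Levels are given as CPM, read counts scaled to the size and composition of each library. The nerve was recognisable by Schwann cell markers in all 6 libraries, with Sox10, the lineage transcription factor, between 257 and 546 CPM and S100b, a Schwann cell calcium-binding protein, between 885 and 2140. Tissue around the nerve differed between single libraries. The summed level of the 20 adipocyte genes tested was 167 CPM in D7_a and 1576 in D7_b, against 1092 and 607 in D4, and the 9 red blood cell genes summed to 75.7 CPM in D7_a and to 474 in D7_b, against 627 and 564 in D4. No adipocyte or red blood cell gene was called by edgeR's quasi-likelihood test, 0 and 2 had an unadjusted p under 0.05, and DESeq2 called 0 and 2. Leaving out D7_a made 1 adipocyte gene pass. The part of such tissue in the results was not tested.

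A gene was called when its adjusted p (edgeR's quasi-likelihood test, Benjamini-Hochberg over all genes tested) was under 0.05 and its fold change at least 2. Of 15195 genes tested, 331 were called (2.18%), 256 of them higher at D7 (1.68%) and 75 lower (0.494%). An unadjusted p under 0.05 was reached by 3754 genes, and 710 had an adjusted p under 0.05 at any fold. The median log2 fold change over all genes tested was 0.01, and the D7 libraries both lay above both D4 libraries for 31.5% of genes and both below for 29.1%. The number of calls rested on single libraries. Without D4_a, 0 genes were called (2054 with an unadjusted p under 0.05, 304 called by DESeq2), and without D4_b 0 were called (2296 and 365). Without D7_a 99 were called, and without D7_b 469. With all libraries DESeq2 called 521 genes, 332 higher and 189 lower, of which 319 were among the 331.

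The called genes leaned toward D7_a in both directions, as the higher D7 library for most rises and the lower for most falls. D7_a was above D7_b for 241 of the 256 genes higher at D7 (94.1%), against 49.4% of all genes tested. D4_a was above D4_b for 76 of the same 256 genes (29.7%), against 47.4% of all genes tested. Of the 256 higher genes, 139 had group means in the order Control, D7, D4 from the top, 88 had D7 above Control above D4, and 29 had D7 above D4 above Control. These orders held for 25.2%, 9.56% and 16.8% of all genes tested (3822, 1453 and 2553 genes). Of the 75 lower genes, 45 had D4 above D7 above Control, 20 had D4 above Control above D7 and 10 had Control above D4 above D7. These held for 24.5%, 6.77% and 17.2% of all genes tested (3720, 1028 and 2619 genes). A call fixes which of D7 and D4 is on top, whereas the shares over all genes cover both directions. They are therefore low by construction beside the called genes. The orders describe the group means only. Against Control, 21.9% of genes were called at D4 and 18.8% at D7, and 10.1% and 5.79% of lncRNA transcripts, in comparisons that share libraries with each other and with D7 against D4.

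Genes were grouped into 25 lists of 677 genes by known role or cell type, of which 657 were found in the files and 600 passed the filter on low counts. The lists held 66 called genes, 46 higher and 20 lower at D7. Over all genes tested, 1.68% were called higher and 0.494% lower, and these shares stand beside the counts of each list below. The members higher at D7 were mainly structural myelin, myelin lipid, node and collagen genes, and the members lower at D7 were spread over trophic factor, immediate early, interferon and DNA replication genes.

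**Figure D1:**
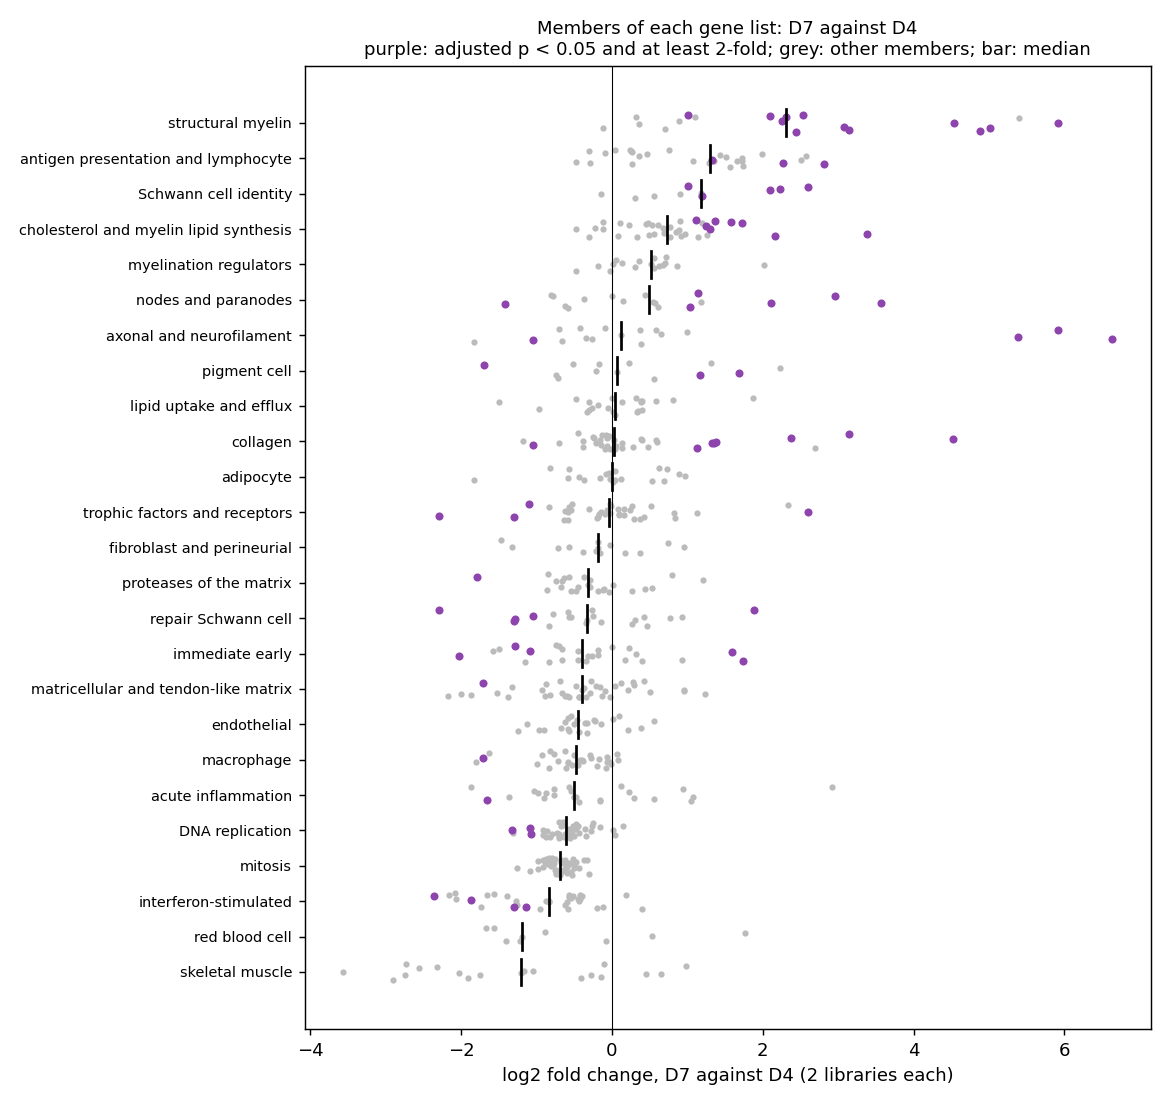
Each point is the log2 fold change of 1 gene at D7 against D4 (2 libraries each), with lists ordered by their median (black bar) and called genes in purple. The structural myelin list has the highest median, 2.31, with 12 purple points to the right of 0, and the mitosis list has all 46 points to the left of 0 and no purple point.

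Structural myelin genes rose together. Of 19 tested, 12 were called higher at D7 and 0 lower. Both D7 libraries lay above both D4 libraries for 16 of them, against 31.5% of all genes tested. Their median log2 fold change was 2.31, against 0.01 over all genes. The summed level of the list was 4775 and 5372 CPM in D4, 20346 and 12878 in D7 and 115890 and 79839 in Control. At the group means, the list stood at 5.18% of its Control level at D4 and at 17.0% at D7. The 12 called members were each higher in D7_a than in D7_b. DESeq2 called 12 members as well, 9 were called without D7_a and 0 without either D4 library.

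Mag, the myelin-associated glycoprotein of the innermost Schwann cell membrane (chr1:89345429-89360733, Rnor_6.0), rose most among them. It measured 1.52 and 1.92 CPM in D4, 133 and 76.5 in D7 and 214 and 151 in Control, so the D7 libraries lay between the other groups without overlap. Its log2 fold change was 5.92 with a standard error (SE) of 0.38 and an adjusted p of 0.00970. From 0.942% of the Control mean it came to 57.4%.

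Prx, which encodes periaxin, a scaffold protein of the outer Schwann cell membrane, measured 35.7 and 36.9 CPM in D4 and 1319 and 827 in D7, with 7334 and 5136 in Control. The rise was 4.89 on the log2 scale (SE 0.31, adjusted p 0.00970), and D7 reached 17.2% of Control. Drp2, a partner of periaxin at the Schwann cell surface, was at 31.2 and 27.9 CPM in D4 and at 224 and 97.2 in D7. Its D7 mean was 5.81% of Control, the lowest share among the called myelin genes set out here. Periaxin was called also without D7_a.

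Ncmap, a glycoprotein of noncompact myelin, was at 0.985 and 0.960 CPM in D4 and at 42.7 and 20.4 in D7, a log2 fold change of 5.01 (SE 0.48, adjusted p 0.0117). Cldn19, a tight junction protein of Schwann cell membranes, was at 4.68 and 7.79 CPM in D4 and at 175 and 116 in D7 (log2 fold change 4.54, SE 0.37, adjusted p 0.0117). In both genes each D7 library exceeded each D4 library by more than 10-fold. Their D7 means were 9.69% and 41.1% of Control.

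Other called members rose less in fold. Pmp22, a membrane protein of compact myelin, went from 257 and 308 CPM to 2039 and 1236, where Control held 18953 and 12891 (log2 fold change 2.53, SE 0.31, adjusted p 0.0184). The days did not overlap, and D7 stayed well under Control, at 10.3% of it. Pmp2, a fatty acid carrier in myelin, and Mal, a lipid raft protein, rose by log2 fold changes of 2.26 and 3.14 and reached 14.2% and 9.89% of Control.

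Gjc3, a glial connexin, reached the level of Control. It was at 7.55 and 6.24 CPM in D4 and 40.8 and 27.5 in D7, with Control at 29.2 and 24.2. Further from Control, Ermn, a cytoskeletal protein of myelinating glia, rose from 0.0821 and 0.369 CPM to 2.07 and 1.93. Among the members not called, Mbp, the myelin basic protein, measured 775 and 741 CPM in D4 and 1993 and 1262 in D7 (adjusted p 0.0947), and Tspan2, a tetraspanin, had the lowest log2 fold change, -0.12.

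**Figure D2:**
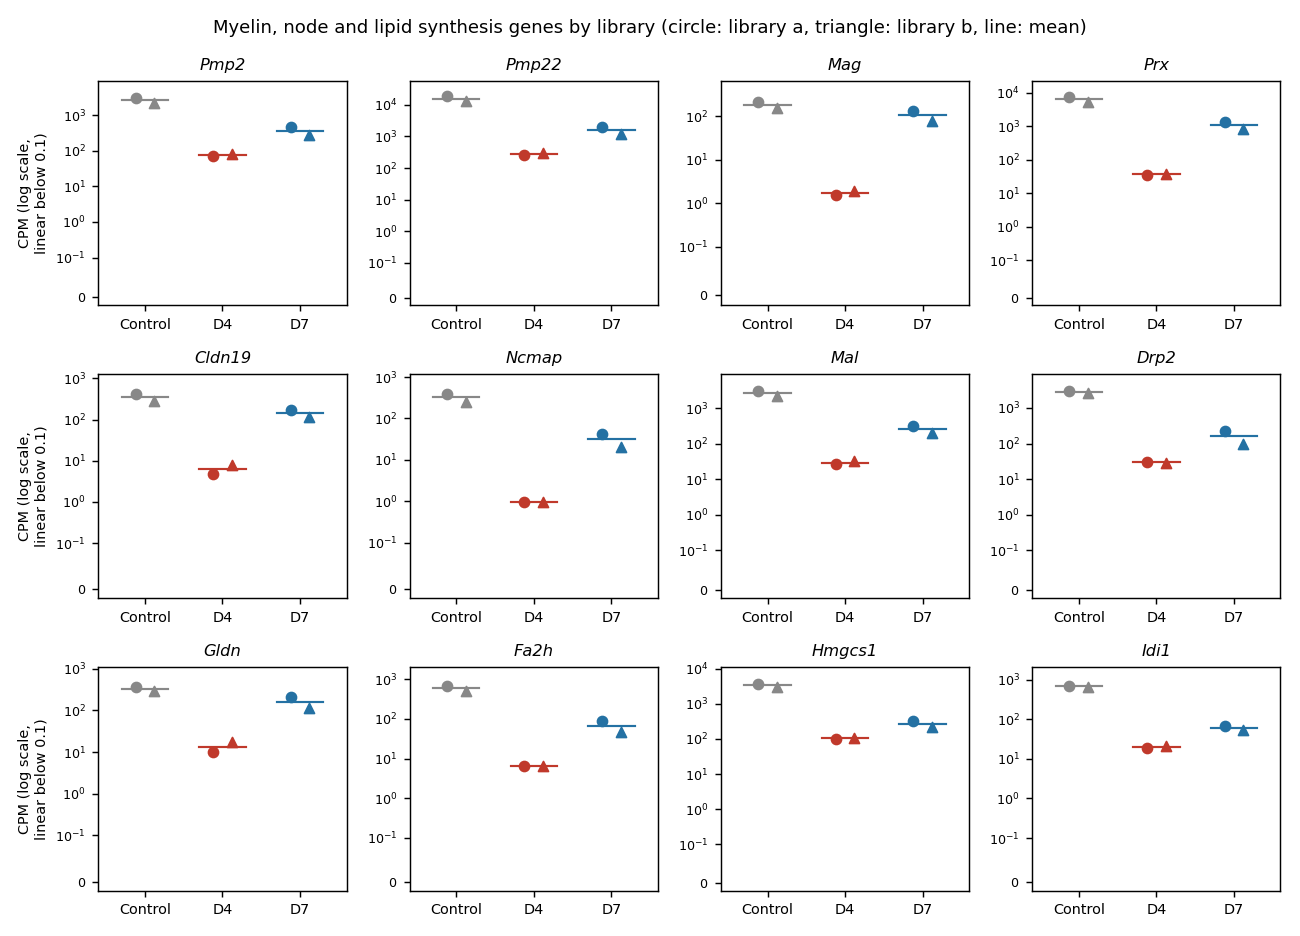
CPM (log axis, linear below 0.1) of 12 genes of myelin structure, nodes and lipid synthesis in each library, with circles for library a, triangles for library b and lines for group means. In every panel both D7 points lie above both D4 points and below both Control points, as for Mag with 76.5 and 133 CPM in D7 against 1.52 and 1.92 in D4.

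Lipid synthesis rose in part of its pathway. Of 36 genes of cholesterol and myelin lipid synthesis tested, 8 were called higher at D7 and 0 lower, with a median log2 fold change of 0.73. Both D7 libraries lay above both D4 libraries for 25 of them, against 31.5% of all genes tested. DESeq2 called 9 higher, and 6 remained called without D7_a. The list was at 10.2% of its Control level at D4 and at 18.5% at D7, but the sum was 4103 CPM in D7_a and 10099 in D7_b, against 4066 and 3783 in D4. Scd, a fatty acid desaturase also abundant in fat, read 79.7 CPM in D7_a and 4580 in D7_b and was not called (adjusted p 0.654), beside the adipocyte genes that were likewise higher in D7_b. The part of fat tissue in this sum was not tested.

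The largest rise was in Fa2h, the enzyme that makes the hydroxylated fatty acids of myelin galactolipids, at 6.44 and 6.54 CPM in D4 and 87.6 and 47.4 in D7 (log2 fold change 3.38, SE 0.33, adjusted p 0.0117). Gal3st1, which makes sulfatide, a sulfated myelin lipid, went from 8.58 and 9.46 CPM to 33.7 and 25.9 and so to 110% of its Control mean. Elovl6, a fatty acid elongase, went from 5.62 and 7.43 CPM to 22.9 and 35.9, the 1 called gene of the list with D7_b above D7_a. A 2nd gene identifier carries the symbol Elovl6 in the files, and reads could have been split between them. In the sterol branch Idi1, Hmgcs1 and Fdft1 rose by log2 fold changes of 1.58, 1.37 and 1.24. Msmo1, a sterol demethylase, rose from 33.8 and 39.5 CPM to 97.5 and 82.3. Hmgcs1, an early enzyme of the pathway, reached 8.05% of Control. Fads1, a fatty acid desaturase, had the lowest log2 fold change of the list, -0.48.

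Genes of nodes of Ranvier and the flanking paranodes, where Schwann cell and axon meet, moved in both directions. Of 18 tested, 5 were called higher and 1 lower, and without D7_a 2 were called higher. Gldn, encoding gliomedin, the Schwann cell protein that gathers sodium channels at the node, was at 10.1 and 17.0 CPM in D4 and at 205 and 117 in D7 (log2 fold change 3.57, SE 0.37, adjusted p 0.0134), and at 49.2% of Control. Kcna2 and Kcna1, potassium channels of the region beside the paranode, rose by log2 fold changes of 2.95 and 2.11 and reached 17.1% and 12.2% of Control. Lgi4, a secreted Schwann cell signal for myelination, stood at 528 and 402 CPM in D7, above 183 and 239 in D4 and above 366 and 298 in Control. Cadm3, an adhesion molecule of the internode, rose by a log2 fold change of 1.03. Nrcam, a nodal adhesion molecule, went the other way, from 347 and 377 CPM in D4 to 135 and 137 in D7, where Control read 172 and 135 (log2 fold change -1.41, SE 0.13, adjusted p 0.0117).

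Regulators of myelination were not called. Of 17 tested, edgeR's quasi-likelihood test called 0, 9 had an unadjusted p under 0.05 and DESeq2 called 1. Egr2, the transcription factor that turns on the peripheral myelin genes, measured 16.5 and 23.0 CPM in D4 and 89.7 and 70.3 in D7, with 294 and 112 in Control (log2 fold change 2.02, SE 0.46, adjusted p 0.0652). The lowest value of the list was that of Yap1, a cofactor of the Hippo pathway, with a log2 fold change of -0.47. The Schwann cell identity list, which shares members with the lists above, had 5 of 11 members called higher. Among them were Gpr37l1, a glial receptor, Art3, an ecto-enzyme, and Gfra3, the artemin receptor, and S100b had the lowest log2 fold change, -0.15. Without D7_a, 0 members of the identity list were called.

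Neurofilament light and medium chains appeared late. Nefl (chr15:44799334-44804574, Rnor_6.0) measured 0.821 and 2.48 CPM in D4, 131 and 202 in D7 and 9.68 and 10.7 in Control. Nefm, on the same chromosome at 44855310 to 44860604, measured 1.56 and 1.88 CPM in D4, 86.2 and 122 in D7 and 3.86 and 2.89 in Control. In both genes the D7 libraries lay far above the other 4, and both had D7_b above D7_a, unlike the myelin genes. The log2 fold changes were 6.63 (SE 0.48, adjusted p 0.0117) and 5.91 (SE 0.26, adjusted p 0.00617). Both were called also without D7_a. As shares of the Control mean, Nefl went from 16.2% to 1630% and Nefm from 51.0% to 3080%.

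The other axonal genes did not follow them. Of 17 axonal and neurofilament genes tested, 3 were called higher and 1 lower, and the median log2 fold change was 0.12. Nefh, the heavy chain that forms filaments with the other chains, was at 0.164 and 0.628 CPM in D4 and at 0.845 and 0.198 in D7, so the days overlapped. Prph, the neuronal filament peripherin, was at 2.26 and 5.43 CPM in D4 and at 1.46 and 3.41 in D7. Stmn2, a tubulin-binding growth cone protein, read 0.739 and 3.92 CPM in D4 and 2.02 and 1.88 in D7. Scn10a, a sodium channel of sensory neurons, was the 3rd called rise, at 1 and 0 counts in D4 and at 1.41 and 0.693 CPM in D7, at least 8.98-fold higher when D4 is set to 3 counts per library. Uchl1, a neuronal ubiquitin hydrolase that injured Schwann cells also carry, fell from 68.8 and 71.1 CPM to 33.6 and 34.0 (log2 fold change -1.05, SE 0.13, adjusted p 0.0192). The lowest value of the list was the log2 fold change of -1.83 of Snap25, a synaptic vesicle fusion protein, which was not called.

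**Figure D3:**
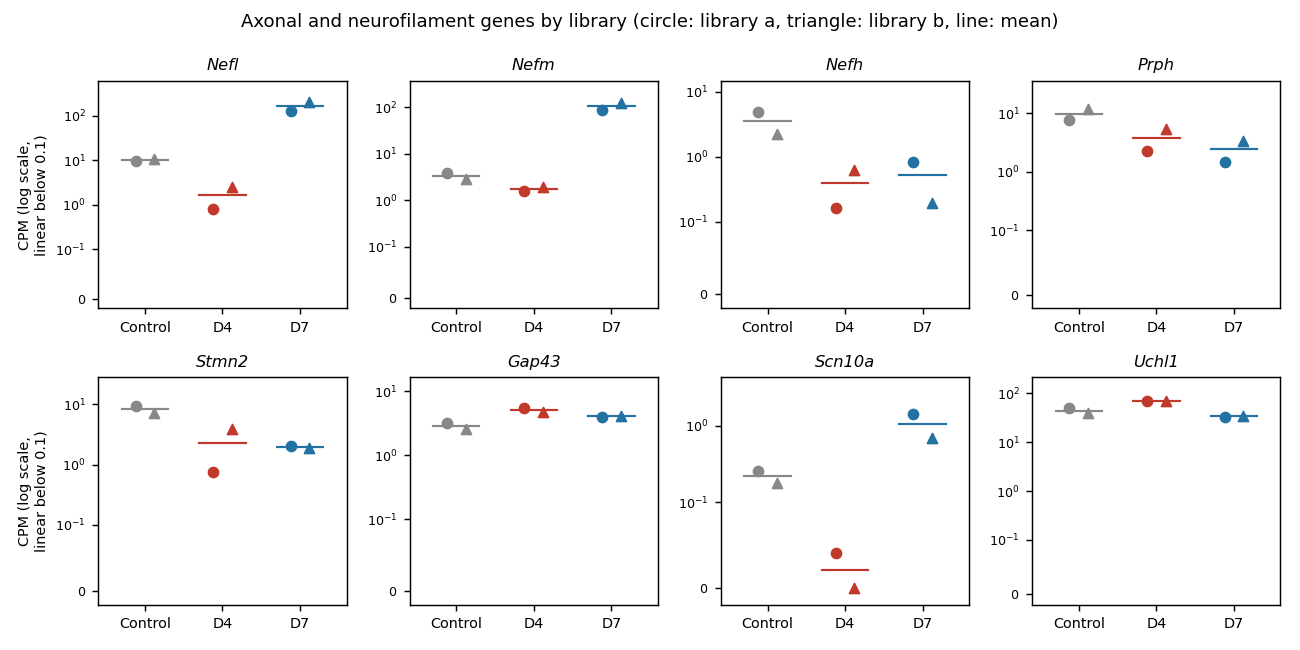
CPM (log axis, linear below 0.1) of 8 axonal genes in each library, with circles for library a, triangles for library b and lines for group means. Nefl and Nefm lie above both other groups at D7, with 131 and 202 CPM for Nefl, whereas the D4 and D7 points of Nefh, Prph and Stmn2 overlap.

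Several genes of the injury response faded. The repair Schwann cell list, genes that Schwann cells turn on after losing contact with axons, had 4 of 21 tested members called lower and 1 higher, with a median log2 fold change of -0.33. Of the 4, 1 was called without D7_a and 2 without D7_b. Gdnf, a growth factor for motor and sensory neurons, was at 20.7 and 26.7 CPM in D4 and at 4.84 and 4.85 in D7, and at 0.155 and 0.121 in Control. This fall of 4.89-fold (log2 fold change -2.29, SE 0.19, adjusted p 0.0117) left it well above Control. Shh, the sonic hedgehog ligand, went from 44.4 and 58.9 CPM to 22.3 and 19.5 (log2 fold change -1.30, SE 0.21, adjusted p 0.0343). Atf3, an injury-induced transcription factor, went from 38.9 and 34.9 CPM to 16.3 and 13.9 (log2 fold change -1.29, SE 0.23, adjusted p 0.0411). For these 3 the days did not overlap and each D7 library remained above both Control libraries. The other member called lower was Uchl1, described above, whose D7 libraries lay below its Control libraries at 49.9 and 39.3 CPM.

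Other genes of the repair program were not called. Jun, the transcription factor that drives this program, was at 434 and 462 CPM in D4 and at 383 and 364 in D7 (adjusted p 0.144). Sox2, a factor of immature Schwann cells, was at 134 and 140 CPM in D4 and 113 and 118 in D7 (adjusted p 0.158). Ngfr, the low-affinity neurotrophin receptor, had an adjusted p of 0.0196 but a log2 fold change of -0.83, short of the 2-fold threshold, at 1864 and 1979 CPM in D4 and 1109 and 1051 in D7. The 1 member that rose was Id2, an inhibitor of differentiation factors, from 6.36 and 6.06 CPM to 21.8 and 24.0 (log2 fold change 1.88, SE 0.30, adjusted p 0.0322).

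Of 38 trophic factors and receptors tested, 3 were called lower and 1 higher. Both D4 libraries lay above both D7 libraries for 13 of the 38, and the reverse held for 10. Over all genes tested these shares were 29.1% and 31.5%. The median log2 fold change was -0.04. The number lower was 1 without D7_a and 2 without D7_b. Beside Gdnf and Shh, Met, the receptor of hepatocyte growth factor, fell from 138 and 141 CPM to 55.6 and 75.3 (log2 fold change -1.09, SE 0.19, adjusted p 0.0372). Gfra3, the receptor subunit for artemin, a relative of Gdnf, rose from 1.56 and 1.18 CPM to 10.7 and 5.99, above the 2.83 and 3.01 of Control.

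Immediate early genes split. Of 26 tested, 3 were called lower and 2 higher, and 17 had both D4 libraries on top, against 29.1% of all genes tested. The number lower was 0 without D7_a and 1 without D7_b, and DESeq2 called 6 lower. Fosl1, a member of the AP-1 transcription factor family, fell from 20.1 and 21.8 CPM to 4.13 and 6.18, with 0.206 and 0.482 in Control (log2 fold change -2.02, SE 0.28, adjusted p 0.0250). Ier3, a stress-response gene, fell from 29.4 and 37.8 CPM to 14.7 and 16.8, within the 19.1 and 14.3 of Control. Egr3, a zinc finger factor of the Egr family, rose from 6.57 and 9.79 CPM to 30.9 and 23.7, and Dusp4, a phosphatase of MAP kinases, from 25.1 and 30.3 to 82.9 and 84.8. Both exceeded Control at D7, where Egr3 read 3.30 and 6.45 CPM and Dusp4 28.6 and 38.3.

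**Figure D4:**
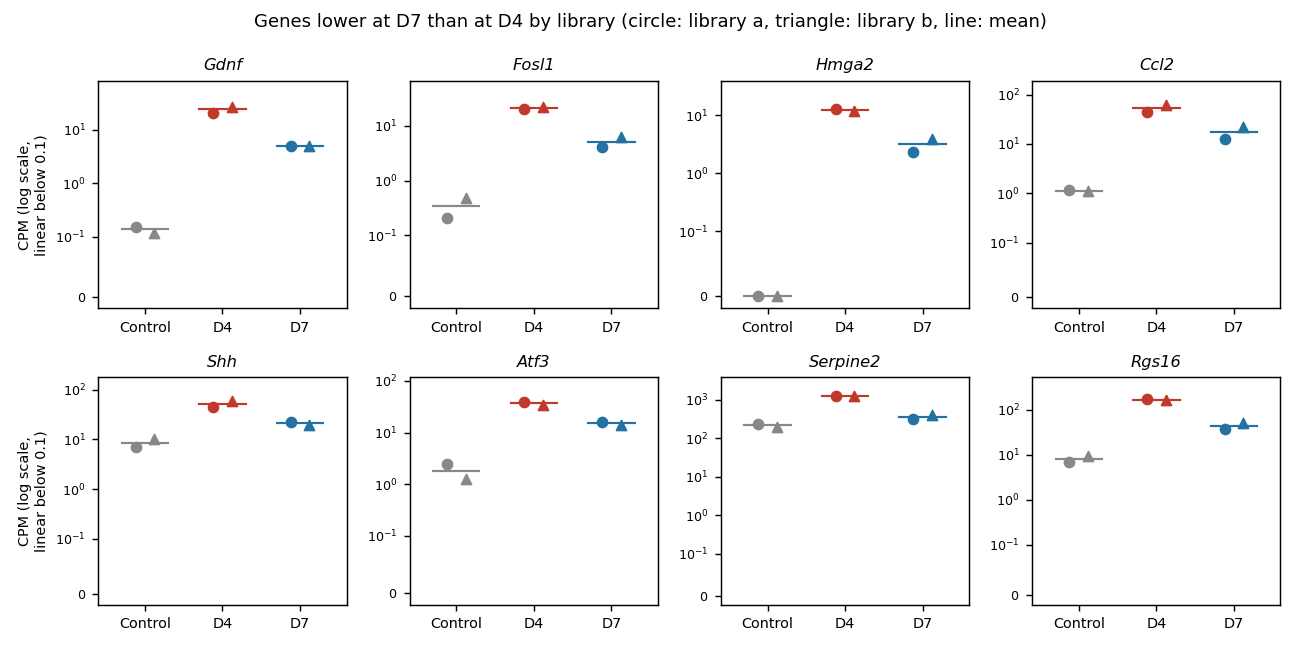
CPM (log axis, linear below 0.1) of 8 genes lower at D7 than at D4, with circles for library a, triangles for library b and lines for group means. In each panel both D7 points lie below both D4 points and above both Control points, as for Gdnf with 4.84 and 4.85 CPM in D7 against 20.7 and 26.7 in D4.

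The acute inflammation and macrophage lists both had negative medians at D7 against D4, with few genes called. The acute inflammation list was mixed. Of 25 genes tested, 17 had a negative and 8 a positive log2 fold change, with a median of -0.50. Both D4 libraries lay above both D7 libraries for 13 of them, and the reverse held for 3. Only 1 was called. This was Ccl2, the main monocyte-attracting chemokine, which fell from 44.7 and 62.5 CPM to 12.5 and 21.5, with 1.18 and 1.09 in Control (log2 fold change -1.66, SE 0.29, adjusted p 0.0373). Il1b, the cytokine interleukin 1 beta, had the highest log2 fold change of the list, 2.91, which rested on 1 library, with 15.3 CPM in D7_a, 1.93 in D7_b and 0.903 and 1.37 in D4. Of 30 macrophage genes tested, 28 had a negative log2 fold change, with a median of -0.47. Both D4 libraries were on top for 19 of them, against 29.1% of all genes tested. The 1 called was Spp1, osteopontin, a secreted matrix protein that macrophages and Schwann cells make, at 915 and 539 CPM in D4 and at 264 and 179 in D7. Its Control libraries read 958 and 736 CPM, so D7 was below both other groups. Cd68, a lysosomal protein of macrophages, was at 107 and 71.7 CPM in D4 and at 84.2 and 86.4 in D7, with the days overlapping.

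Interferon-stimulated genes, which cells turn on against viruses, were lower at D7 in 31 of 33 tested, with a median log2 fold change of -0.83. Both D4 libraries were on top for 29 of them, against 29.1% of all genes tested. The test called 4, with 0 called without D7_a and 6 without D7_b, and DESeq2 called 10. Gbp4 and Gbp2, interferon-induced GTPases, fell from 12.5 and 13.5 CPM to 2.63 and 2.42 and from 318 and 386 CPM to 136 and 150. Oasl, a relative of the oligoadenylate synthetases that sense viral RNA, fell from 10.02 and 8.31 CPM to 2.07 and 2.97, below its Control libraries at 6.13 and 4.58. Usp18, which removes the ubiquitin-like protein Isg15, fell from 15.4 and 13.8 CPM to 5.96 and 7.32, with Control at 21.3 and 16.8. The summed level of the list was 1582 and 1498 CPM in D4 and 749 and 902 in D7, against 1511 and 933 in Control.

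Mitosis genes were lower at D7 without exception but by less than 2-fold for most. All 46 tested had a negative log2 fold change and both D4 libraries above both D7 libraries, which held for 29.1% of all genes tested. The median log2 fold change was -0.68, from -1.26 for Spc24, a kinetochore protein, to -0.30 for Kif15, a spindle motor. The quasi-likelihood test called 0, 28 had an unadjusted p under 0.05, 5 had an adjusted p under 0.05 with no fold threshold and DESeq2 called 3. The list summed to 2801 and 3150 CPM in D4, to 1815 and 1897 in D7 and to 155 and 271 in Control, so D7 remained at 871% of Control. DNA replication genes were likewise mostly lower, with 39 of 42 log2 fold changes negative and a median of -0.60, and 3 were called. Among them were Tk1, a thymidine kinase, and Gmnn, the replication licensing inhibitor geminin, with log2 fold changes of -1.09 and -1.07. Tk1 measured 74.6 and 82.2 CPM in D4 and 35.2 and 38.4 in D7, and 4.43 and 7.17 in Control. None of the 3 was called without D7_a or without D7_b.

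Many mitosis genes carry in their promoters the cell cycle homology region, a short element known to hold such genes silent outside division. Its core letters TTTGAA, or TTCAAA on the other strand, were searched in RefSeq promoters (250 bases before to 50 after the gene's start, GRCr8 build). Of the 40 mitosis genes with a promoter in the RefSeq table, 26 held the letters (65.0%), against 18.3% of all 33469 promoters. All 46 mitosis genes tested had a negative log2 fold change, with or without the letters. Spc24, which had the lowest, held no match, and the falls were not compared between genes with and without one. 3 promoters with a match are shown, each 5′ to 3′ on the strand of its gene with the matched letters in capitals. Cdc20, an activator of the ligase that ends mitosis, lies at chr5:137255750-137256049 on the minus strand, with the match at position -51 from the gene's start. Pttg1, securin, lies at chr10:28406277-28406576 on the minus strand with the match at -29, and Top2a, a topoisomerase, at chr10:84473044-84473343 on the minus strand with the match at -22. A match is a description of the letters only.
Cdc20: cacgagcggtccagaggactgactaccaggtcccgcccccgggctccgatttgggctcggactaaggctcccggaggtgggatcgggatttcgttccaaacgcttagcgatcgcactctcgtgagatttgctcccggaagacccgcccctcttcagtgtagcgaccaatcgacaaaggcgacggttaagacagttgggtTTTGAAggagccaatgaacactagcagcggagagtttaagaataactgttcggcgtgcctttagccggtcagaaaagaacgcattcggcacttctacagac
Pttg1: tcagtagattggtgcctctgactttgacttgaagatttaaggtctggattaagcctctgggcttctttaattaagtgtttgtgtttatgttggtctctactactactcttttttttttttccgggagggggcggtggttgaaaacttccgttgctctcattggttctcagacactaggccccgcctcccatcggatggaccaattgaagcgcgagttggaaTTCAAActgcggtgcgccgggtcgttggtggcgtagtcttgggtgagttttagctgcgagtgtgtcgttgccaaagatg
Top2a: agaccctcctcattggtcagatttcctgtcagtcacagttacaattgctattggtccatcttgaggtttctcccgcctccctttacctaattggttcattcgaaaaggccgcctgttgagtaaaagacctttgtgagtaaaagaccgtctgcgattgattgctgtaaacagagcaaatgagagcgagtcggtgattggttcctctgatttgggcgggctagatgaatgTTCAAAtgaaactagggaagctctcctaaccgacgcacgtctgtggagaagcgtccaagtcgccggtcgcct
These genes measured 64.4 and 76.2 CPM in D4 and 50.1 and 49.5 in D7 (Cdc20), 17.1 and 19.6 against 9.53 and 10.8 (Pttg1) and 326 and 368 against 224 and 243 (Top2a). The days did not overlap in any of them. Only the adjusted p of Pttg1 was under 0.05, at 0.0444 with a log2 fold change of -0.85. The sterol regulatory element, searched as TCACNCCAC or GTGGNGTGA, was held by 0 of 26 cholesterol and lipid synthesis promoters and by 1.12% of all promoters. Other spellings were not searched, and at so low a share few matches are to be expected among 26 promoters. The search therefore cannot show that these promoters lack the element.

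Some T lymphocyte genes rose between the days. Of 28 antigen presentation and lymphocyte genes tested, 3 were called higher and 0 lower, and the median log2 fold change was 1.31. Both D7 libraries were on top for 23 of them, against 31.5% of all genes tested. Cd3g, a chain of the T cell receptor complex, was at 0.205 and 0.185 CPM in D4 and at 1.36 and 1.43 in D7, where Control read 1.08 and 1.33, so D7 was back at about the Control level. Cd2, an adhesion molecule of T cells, was at 0.616 and 0.517 CPM in D4 and at 3.43 and 2.08 in D7, above 0.155 and 0.241 in Control. Lck, the kinase that starts T cell receptor signalling, was at 2.30 and 2.88 CPM in D4 and at 7.04 and 5.94 in D7. The log2 fold changes were 2.81, 2.27 and 1.32, with adjusted p-values of 0.0295, 0.0446 and 0.0451. All were low in level, and none was called without D7_a, without D7_b or without either D4 library. Cd8a, of cytotoxic T cells, read 4.06 and 3.55 CPM in D4 and 11.1 and 12.9 in D7 (adjusted p 0.0832), and DESeq2 called 6 members of the list.

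Among 13 pigment cell genes tested, 2 were called higher and 1 lower. Tyrp1, a melanin enzyme known also from injured nerve Schwann cells, was at 102 and 91.5 CPM in D4 and at 261 and 175 in D7, and at 0.155 and 0.121 in Control. Ednrb, an endothelin receptor of neural crest cells and glia, rose from 50.2 and 71.4 CPM to 219 and 173, with 19.9 and 21.0 in Control. Their log2 fold changes were 1.17 (SE 0.19, adjusted p 0.0343) and 1.69 (SE 0.20, adjusted p 0.0159). Pmel, a melanosome matrix protein, fell from 6.40 and 6.35 CPM to 1.36 and 2.57, so the genes of this list did not move as 1 group.

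Some minor collagen types rose, others fell, and the abundant Col1a1 did not change past the threshold. Of 37 tested, 7 were called higher and 1 lower, with a median log2 fold change of 0.03. The log2 fold change was positive in 19 and negative in 18. Col6a5 had the lowest, -1.18, with mean levels of 103 CPM in D4 and 45.5 in D7. Col2a1, the fibrillar collagen of cartilage, was at 3.98 and 5.02 CPM in D4, 135 and 72.0 in D7 and 744 and 370 in Control (log2 fold change 4.52, SE 0.48, adjusted p 0.0141). Col28a1, a collagen known from Schwann cells, was at 3.98 and 4.32 CPM in D4 and at 44.8 and 28.6 in D7 (log2 fold change 3.14, SE 0.23, adjusted p 0.0117). Both were still below their Control libraries, which read 78.5 and 79.2 CPM for Col28a1. Col27a1 rose from 76.7 and 77.6 CPM to 244 and 151, above 45.8 and 52.2 in Control. Col24a1, Col9a3, Col9a2 and Col16a1 rose by log2 fold changes of 2.37, 1.38, 1.33 and 1.13, while Col9a1, which encodes a chain of the same collagen type as Col9a2 and Col9a3, fell by 1.04 on the log2 scale. Col1a1, the main collagen of connective tissue, was at 16969 and 15504 CPM in D4 and at 11662 and 13124 in D7 (adjusted p 0.147). Without D7_a, 3 collagen genes were called higher.

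Other groups of matrix and tissue genes gave few calls. Among 25 matrix proteases and their inhibitors, 1 was called, Serpine2, the protease nexin that blocks thrombin and plasminogen activators, which fell from 1219 and 1251 CPM to 313 and 404, toward the 235 and 194 of Control (log2 fold change -1.79, SE 0.16, adjusted p 0.0117). It was called also without D7_a. Among 39 matricellular genes Spp1 was the 1 called, with a median log2 fold change of -0.40. The quasi-likelihood test called 0 of 23 lipid uptake genes, 0 of 24 endothelial genes, 0 of 14 fibroblast and perineurial genes and 0 of 19 skeletal muscle genes. In the same order 8, 6, 5 and 1 of them had an unadjusted p under 0.05, and DESeq2 called 3, 1, 1 and 0. Apoc1, a lipoprotein component, had the highest log2 fold change of the lipid uptake list, 1.87, at 1.03 and 1.07 CPM in D4 and 4.32 and 3.36 in D7 (adjusted p 0.0528), and was listed at 0 in Control. Median log2 fold changes were 0.05, -0.45, -0.19 and -1.20, and the muscle list summed to 148 CPM in D4_a and 37.3 in D4_b, with the D7 libraries between them at 50.5 and 64.9.

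The largest rises over all genes were ranked among called genes of at least 1 FPKM in D4 or D7 whose days did not overlap. Beside the myelin, neurofilament and collagen genes above, the 12 held Sec14l5, Pnlip, Slc9a3, Ryr3 and Fam84a. Sec14l5, a lipid transfer domain protein, had 0 and 1 counts in D4 and 290 and 151 in D7, at least 90.1-fold higher with D4 set to 3 counts per library, and Control held 1103 and 769. Pnlip, pancreatic lipase, had 0 counts in all D4 and Control libraries and 62 and 31 in D7, at least 19.0-fold higher. It was the 1 gene of the 12 listed at 0 in both other groups.

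Slc9a3, a sodium and proton exchanger, measured 0.575 and 0.554 CPM in D4, 47.7 and 27.3 in D7 and 126 and 93.5 in Control (log2 fold change 6.04, SE 0.39, adjusted p 0.00970). Ryr3, a calcium release channel, measured 0.369 and 1.55 CPM in D4 and 35.9 and 22.4 in D7, and 21.4 and 28.6 in Control, so that D7 and Control overlapped. Fam84a rose from 0.287 and 0.406 CPM to 9.20 and 6.14, with 1.03 and 1.81 in Control.

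Of the 12 largest falls, Gbp4, Gdnf and Fosl1 were described above. Elk4, a transcription factor that acts with serum response factor, was the most abundant of the 12 at D4. It measured 191 and 181 CPM in D4, 28.9 and 38.9 in D7 and 199 and 173 in Control, a fall of 5.49-fold from D4 (log2 fold change -2.46, SE 0.17, adjusted p 0.00983). D4 and Control overlapped, and D7 lay far below both. AABR07070161.2, a gene model with no function given here, had 121 and 127 counts in D4, 15 and 16 in D7 and 153 and 57 in Control. It shares its position with a transcript in the lncRNA table, and the counts of the 2 are identical in all 6 libraries, so the fragments are listed in both tables.

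Hmga2, a chromatin protein of embryonic cells, was at 0 counts in Control, at 12.9 and 11.9 CPM in D4 and at 2.35 and 3.91 in D7. Slc39a12, a zinc transporter, was likewise at 0 counts in Control and at 3.41 and 2.81 CPM in D4 against 0.470 and 0.594 in D7. Rgs16 and Rgs8, which shorten G protein signalling and lie beside each other on chromosome 13, fell from 174 and 162 CPM to 37.2 and 51.1 and from 16.7 and 16.4 to 4.84 and 3.86. All 4 remained above Control at D7, where Rgs16 read 6.85 and 9.16 CPM.

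Elk4 and AABR07070161.2 above were below both Control libraries at D7, and both were called lower in D7 against Control. Pdk4 and Lgals2 also went below both Control libraries. They were not called in D7 against Control (quasi-likelihood adjusted p 0.0528 and 0.195). Pdk4, a kinase that slows glucose oxidation, fell from 104 and 80.1 CPM to 17.0 and 19.7, with 72.1 and 25.7 in Control. Lgals2, a galectin, fell from 2.26 and 2.84 CPM to 0.563 and 0.643, with 1.03 and 0.904 in Control. In both genes the D7 libraries lay below all other libraries.

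Fewer lncRNA transcripts were called. Of 14077 tested, 35 passed the same threshold (0.249%), 20 higher at D7 (0.142%) and 15 lower (0.107%), and 1764 had an unadjusted p under 0.05. Of the 35, 28 carry NONCODE names and 7 are transcripts newly predicted by the authors. DESeq2 called 382, among them all 35. The edgeR count was 17 without D4_a, 23 without D4_b and 10 with the library letter as a block. Of the 20 higher, 11 had Control above D7 above D4 and 9 had D7 above Control above D4. These orders held for 20.7% and 11.1% of all lncRNAs tested. Of the 15 lower, 9 had D4 above Control above D7, against 9.95% of all lncRNAs tested. As for genes, the shares over all lncRNAs cover both directions and are low by construction beside the called ones. The share of calls that were higher was 57.1% here and 83.6% of 171 when lncRNAs and genes were put in 1 fit with shared scaling, in which the median log2 fold change of all lncRNAs was 0.16. Without TMM factors it was 62.2% of 37, without D7_a 39.4% of 33 and with only the D4 and D7 libraries 48.9% of 47.

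The called lncRNAs were set beside the genes at their positions. Of the 35, 22 overlapped a gene, 8 lay within 10 kb of a gene and 5 had no gene within 10 kb. A gene called in the same direction was overlapped by 6 of the 35. The same counts were not made over all lncRNAs tested, so this split cannot be read as particular to the called ones. Whether counting used the strand is not stated, so reads of a gene and of a transcript over it cannot be told apart. NONRATT010108.2 and NONRATT010109.2 on chromosome 14 both overlap Emid1, an extracellular matrix protein gene, and rose by log2 fold changes of 3.02 and 3.12 where Emid1 rose by 3.52. NONRATT021233.2 overlaps Col28a1 and had 34 and 42 counts in D4 and 324 and 199 in D7. The others of the 6 overlap C1ql3, Il16 and, on the lower side, Dusp10.

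Some of the called lncRNAs that rose lay just outside genes that rose. Each was picked because it was called, and uncalled lncRNAs near rising genes were not counted. NONRATT022570.2 (chr5:138307118-138308052, Rnor_6.0) begins 1435 bases beyond Cldn19. It had 38 and 54 counts in D4, 2597 and 1512 in D7 and 5363 and 3243 in Control, a log2 fold change of 5.55 (SE 0.39, adjusted p 0.0157). Cldn19 itself rose by 4.54. NONRATT015685.2 lies 6704 bases from Kcna2 and rose by a log2 fold change of 2.92, where Kcna2 rose by 2.95. A nearer gene model, AC113635.3, lies 150 bases from it and was also called higher, with a log2 fold change of 3.16. NONRATT008472.2, 854 bases from Kcnj10, a glial potassium channel gene named here after its values were seen, had 227 and 322 counts in D4 and 3972 and 2570 in D7, where Kcnj10 had 63 and 128 against 1465 and 912.

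Most of the largest lncRNA changes lay over genes that did not change past the threshold. Of the 22 overlapping lncRNAs, 16 overlapped no gene called in their direction, 5 of them higher and 11 lower. Of all genes tested, 2.18% were called in either direction. Among the 16, MSTRG.15842.1 and MSTRG.16884.1 overlap only genes with too few counts to be tested. NONRATT000490.2 had 1779 and 1915 counts in D4, 2 and 2 in D7 and 3 and 3 in Control. It was at least 588-fold lower at D7, with D7 set to 3 counts per library. NONRATT030737.2 (chr7:141878162-141879601), over Dip2b, had 3 and 3 counts in D4, 3 and 3 in Control and 1761 and 1437 in D7, at least 556-fold higher. Dip2b had 10680 and 12046 counts in D4 and 12904 and 10082 in D7, a log2 fold change of 0.32. How fragments were shared out between a transcript and others over it in each library is not stated, so these bounds hold for the counts as listed, and whether the assignment differed between libraries was not tested.

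NONRATT019532.2 (chr3:94702639-94704697) overlaps an end of Qser1 and had 605 and 742 counts in D4 and 706 and 465 in Control but 1 and 1 in D7, at least 214-fold lower. Qser1 had 4200 and 5036 counts in D4 and 4127 and 4012 in D7 (log2 fold change 0.13, adjusted p 0.408). In 10 of the 35 called lncRNAs the lower group held at most 3 counts in each library, 5 of them higher and 5 lower at D7. MSTRG.15842.1, a newly predicted transcript of chromosome 2 that overlaps Kcna10, had 1 and 1 counts in D4, 491 and 314 in D7 and 909 and 890 in Control, and Kcna10 had 0 counts in D4 and D7.

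Some called transcripts were mirrored by another transcript of their locus. MSTRG.5720.1 had 1 and 0 counts in D4 and 52 and 65 in D7, while MSTRG.5720.2 of the same locus had 48 and 106 in D4 and 0 and 0 in D7. MSTRG.4110.1, inside Atp10b, had 99 and 107 counts in D4 and 0 and 0 in D7, while MSTRG.4110.2 had 0 and 0 in D4 and 269 and 171 in D7. When overlapping transcripts were summed per locus, an alternative chosen after seeing the data, 73 of 11709 loci were called. These included the loci of 32 of the 35 called lncRNAs, and 5 of the 35 came from loci with more than 1 transcript. The 3 whose loci were not called were MSTRG.4110.1, MSTRG.5720.1 and NONRATT026666.2. At the locus the log2 fold change turned from -9.61 to 1.17 for MSTRG.4110.1 and from 6.60 to -0.30 for MSTRG.5720.1, and it went from -4.33 to -1.54 for NONRATT026666.2. The changes of the transcripts therefore did not hold for these loci. The locus of MSTRG.26492.2 was called with a log2 fold change of 1.95, where the transcript had 7.43.

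**Figure D5:**
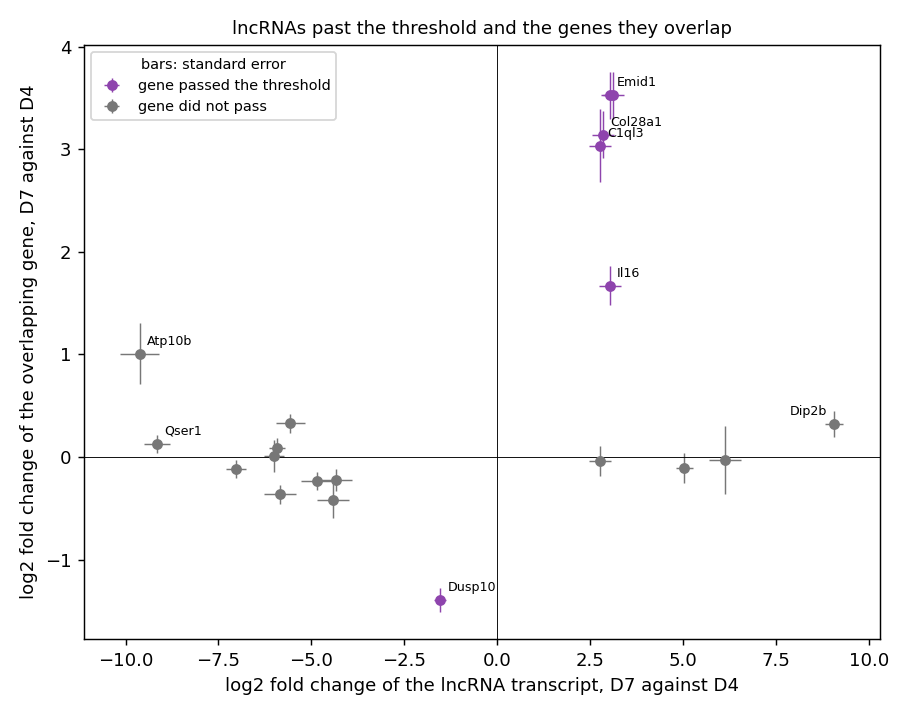
Log2 fold change at D7 against D4 of each called lncRNA that overlaps a tested gene (x axis) and of that gene (y axis), 1 gene left out. Bars give the standard error and called genes are in purple. Overlapped genes that were not tested, such as Kcna10, are not shown. The purple points, such as Emid1 at 3.52, follow their lncRNAs, whereas the grey genes lie near 0, as Qser1 at 0.13 and Dip2b at 0.32, apart from Atp10b at 1.01.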

How the data were processed

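Sciatic nerve RNA of 6 rats was sequenced, with Control, D4 and D7 as the labels give them and 2 libraries each. The authors removed ribosomal RNA, mapped reads with HISAT2 2.0.4 and assembled transcripts with StringTie 1.3.0 (versions per the submitters' processing notes, build Rnor_6.0). They deposited raw fragment counts per gene and per lncRNA transcript, and FPKM values. Strand use is not stated in the sources used here. The counts were tested, and FPKM served only as a minimum of 1 for features named by rank.

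Low features were removed with filterByExpr, TMM factors were applied, and edgeR 4.0.16 (R 4.3.3) made 1 quasi-likelihood fit over the 6 libraries, for genes and lncRNAs apart. The contrast was D7 against D4, with Benjamini-Hochberg adjustment and thresholds of 0.05 and 2-fold. SE is the absolute log2 fold change over the square root of F. P-values measure the spread between these rats only. A group with at most 3 counts in each library was set to 3 counts for a lower bound. Totals were 18727255 to 25350886 counts over genes, so counting error was small beside the spread between rats for all but low genes.

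Named genes were the called list members and the ends of each list, the 12 largest rises and falls among genes and 8 among lncRNAs, and genes at a named lncRNA. Mbp, Scd, Sox10, Jun, Sox2, Ngfr, Nefh, Prph, Stmn2, Cd68, Cd8a, Col1a1, Cdc20, Pttg1, Top2a and the lncRNAs at Emid1, Col28a1, Kcna2 and Kcnj10 were added after their values were seen. The members and lists were chosen with earlier results of these data known. Of 677 list genes 20 were not found and 8 were matched through RefSeq, by Ensembl identifier or by synonym. Scripts were tested on simulated data. Alternatives changed the samples, tool (DESeq2 1.42.0), scaling, filter, threshold and pairing. Adjusted p-values in the text come from the quasi-likelihood test. Deviations of the a libraries from their group means correlated over genes at -0.134 (D4 with D7), 0.195 (Control with D7) and 0.0103 (Control with D4). Promoters came from RefSeq (GRCr8, another build, used by symbol). Some genes are not reported here.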

Additional observations from a re-analysis of the deposited data

Results flagged for a closer look

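Features whose effects against Control were called in opposite directions on the 2 days, and whose difference was itself called in D7 against D4, were set apart. Fam84a was below Control at D4 and above it at D7, with a log2 fold change of 4.44 between the days. Nefl was below Control at D4 and above it at D7, with a log2 fold change of 6.63. NONRATT014793.2, a lncRNA over Galns on chromosome 19, went the other way, with 99 and 83 counts in Control, 292 and 289 in D4 and 2 and 2 in D7, a fitted log2 fold change of -7.03 and at least 92.8-fold lower at D7 with D7 set to 3 counts per library. Galns had 2155 and 2364 counts in D4 and 1807 and 1560 in D7. The difference was tested by edgeR's quasi-likelihood contrast of D7 against D4, and its cause was not tested.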

How the results depend on the processing

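Among the single features recomputed, MSTRG.4110.1 and MSTRG.5720.1 changed direction when transcripts were summed per locus, to log2 fold changes of 1.17 and -0.30. The 331 gene calls ranged from 0 to 469 when 1 library was left out and the 35 lncRNA calls from 17 to 47. With 1 library left in an arm, that library is assumed to vary like the other groups. With DESeq2 521 genes and 382 lncRNAs were called, with the edgeR exact test 631 and 266, at an adjusted p under 0.01 8 and 10, with a 2-fold change tested 37 and 19, and with lncRNAs and genes in 1 fit 197 and 171. With no fold threshold 710 genes were called. Without a low-count filter 17 lncRNAs were called, with at least 10 counts in every library 78, and with overlapping transcripts summed per locus 73. The letters a and b do not mark shared animals, and the deviations of D4_a and D7_a from their group means correlated at -0.134 over genes, those of Control_a and D7_a at 0.195. With the letter as a replicate block 248 genes and 10 lncRNAs were called, and with the letters of D4 exchanged, chosen after seeing the data, 334 and 17. Apart from alternatives that test fewer samples or a stricter threshold by construction, the cause was not tested. Low genes such as Cd3g and Scn10a are limited by depth.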
